A study of Homo sapiens with 18 samples.

Results

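The OAS family genes OAS1, OAS2, OAS3 and OASL, 4 of the 62703 genes listed, were followed through RNA-seq of MDA-MB-231 cells. MDA-MB-231 is an established human triple-negative breast cancer line. The family was chosen by measured values, because OASL fell strongly under the EZH2 hairpin. The values of shEZH2 against control shRNA are therefore given as a description without a test, and only shE2F1 against control shRNA and GSK126 against DMSO were tested. The study asked how EZH2, the catalytic subunit of the H3K27 methyltransferase PRC2, works with the cell cycle transcription factor E2F1 in these cells.

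The 10 libraries formed 5 groups of 2. In the knockdown experiment, cells received a lentivirus carrying control shRNA, shEZH2 or shE2F1 for 24 h, followed by 2 µg/ml puromycin for 72 h, so that control cells carried a hairpin and the selection as well. In the drug experiment, cells received DMSO or 1 µM GSK126, an inhibitor of the EZH2 methyltransferase activity, for 72 h. Each gene was targeted by 1 hairpin in the libraries analysed. The labels do not say whether replicates came from separate cultures, so p-values measure the spread between these libraries, which may be technical. The libraries held 13198935 to 20055520 expected counts.

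OAS1, OAS2 and OAS3 encode enzymes that bind double-stranded RNA and then make 2-5A, short chains of adenylate that act as a second messenger of the antiviral response. OASL resembles them but makes no 2-5A. It carries ubiquitin-like domains and enhances signaling by the RNA sensor RIG-I. All 4 are classical interferon-stimulated genes, induced through ISGF3, a transcription factor complex that includes STAT2 and IRF9 and binds the interferon-stimulated response element (ISRE) in promoters.

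OAS1, OAS3 and OAS2 lie side by side on the plus strand of chromosome 12 in GRCh38, at chr12:112905856-112933219, chr12:112938051-112976460 and chr12:112978395-113011723. OASL lies apart on the minus strand at chr12:121017763-121039246. All 4 are annotated as protein-coding. The annotated transcripts of the 4 genes shared no stretch of 50 bases with each other, and RSEM gave a posterior standard deviation of 0 for the count of each in every library, so their reads were not divided among paralogs. An antisense lncRNA, ENSG00000257452, overlaps 222 exon bases of OAS1 and was listed at 0 counts in every library.

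Promoters are shown for OAS1 and OAS3, the members present in the set of promoter windows used here. The windows come from RefSeq (GRCh38.p14), run from 250 bases before to 50 after the RefSeq start and cover chr12:112906712-112907011 and chr12:112938224-112938523 on the plus strand. That set held no window for OAS2 or OASL, so their promoters are not shown. Capitals mark ISRE cores, a pair of GAAA with any 2 bases between them or with any 1 base between them (GAAANGAAA), and the E2F motifs TTTCCCGC and TTTGGCGC, each searched on both strands. The GAAANGAAA form was added with these sequences known.
OAS1: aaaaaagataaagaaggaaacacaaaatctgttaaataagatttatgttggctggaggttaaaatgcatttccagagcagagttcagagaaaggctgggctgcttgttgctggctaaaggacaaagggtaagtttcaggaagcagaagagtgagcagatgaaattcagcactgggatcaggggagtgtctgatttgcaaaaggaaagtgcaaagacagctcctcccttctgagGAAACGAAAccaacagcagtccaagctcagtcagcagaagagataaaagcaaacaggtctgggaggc
OAS3: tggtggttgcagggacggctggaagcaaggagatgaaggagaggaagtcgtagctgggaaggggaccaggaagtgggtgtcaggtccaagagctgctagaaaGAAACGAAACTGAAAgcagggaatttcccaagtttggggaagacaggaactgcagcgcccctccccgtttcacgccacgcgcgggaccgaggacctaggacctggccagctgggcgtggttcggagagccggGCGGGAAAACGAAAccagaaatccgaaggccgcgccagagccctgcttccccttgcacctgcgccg
The OAS1 window held GAAACGAAA at position -17 from the start and no E2F motif. The OAS3 window held GAAACTGAAA at -143 and GAAAACGAAA at -12. A GAAACGAAA match at -148 overlapped the former, and a reverse match to the TTTCCCGC motif, GCGGGAAA at -16, overlapped the latter. Of 35097 promoter windows, 6.40% held either ISRE core and 2.27% held either E2F motif. These matches describe letters in the windows and are not evidence of binding.

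The line was first checked by its markers. VIM ranged from 1185 to 2860 TPM, PGR was at 0, ESR1 at 0 to 4 counts and ERBB2 at 734 to 1704 counts. Of 5 leukocyte markers, CD3E and CLEC4C were at 0 in every library, PTPRC had 1 to 11 counts, CD14 4 to 21 and CSF1R 5 to 88. EZH2 was at 153 and 181 CPM in control shRNA and at 52.7 and 44.8 in shEZH2. E2F1 was at 143 and 138 CPM in control shRNA, at 26.0 and 22.5 in shE2F1, and also low in shEZH2, at 62.5 and 32.3. CPM are counts scaled to library size with TMM factors and were used to compare 1 gene between libraries. TPM, which also divide by transcript length, were used to compare genes.

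OASL was the most abundant member in the 8 libraries outside shEZH2, with 26.2 to 61.8 TPM in all 8. In these libraries the order was always OASL, OAS3, OAS2 and OAS1. OASL made up 64.6% and 65.4% of the summed TPM of the family in control shRNA and 57.8% to 61.2% in the 4 drug libraries. In shEZH2 it made up 17.4% and 10.7%, and OAS3 became the most abundant member with 52.4% and 54.4%. The family summed to 70.1 and 50.5 TPM in control shRNA, 24.7 and 20.4 in shEZH2, and 102.8 and 94.9 in shE2F1.

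**Figure D1:**
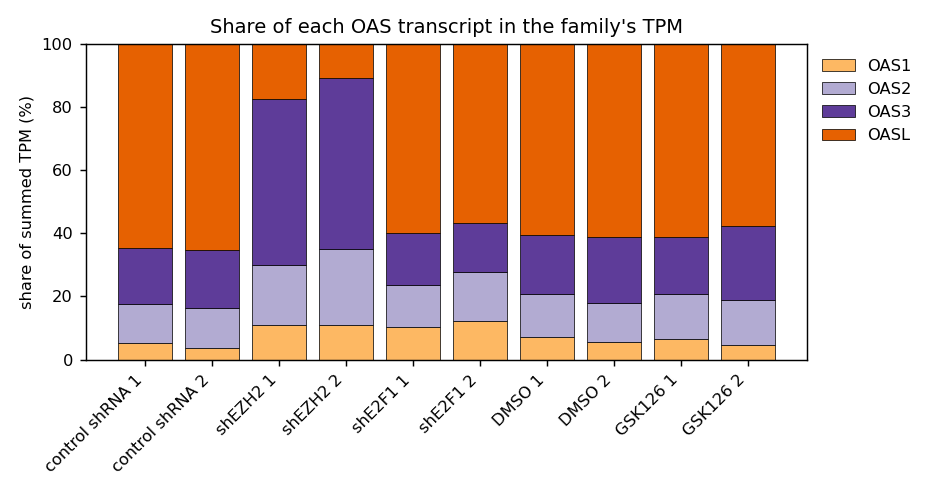
Stacked bars give the share of each OAS gene in the summed TPM of the family (%) for each of the 10 libraries. OASL takes between 56.7% and 65.4% everywhere except in the 2 shEZH2 libraries, where it takes 17.4% and 10.7%.

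OASL, the member without enzymatic activity, had 932 and 634 counts in control shRNA, or 49.4 and 38.0 CPM. It had 56 and 39 counts in shEZH2, or 4.22 and 2.25 CPM. Both shEZH2 libraries were far below all others, and no other group came near them. The fitted difference was -3.81 ± 0.24 (log2, SE, n = 2 per group), a 14.1-fold lower level. OASL was the 1 member past the call of adjusted p below 0.01 and more than 2-fold in that comparison, in which 18.2% of 15373 genes passed in either direction, 10.7% as lower and 7.52% as higher. That comparison picked the family, so nothing is read from the count.

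Other measurements moved with OASL in shEZH2. Log2 changes in shEZH2 correlated with the GC content of genes (Pearson r = -0.239 across 15366 genes, which are not independent), and OASL, with a GC content of 51.4%, stood at -3.69 after correction for GC content and length. The summed level of 5 markers of the line (VIM, CD44, AXL, CAV1 and KRT18) was 8230 to 8850 CPM in control shRNA and 3960 to 4150 in shEZH2. The markers did not move alike. AXL was at -1.83, VIM at -1.33, CAV1 at -1.27, KRT18 at -0.39 and CD44 at 0.07 (log2). The summed level of 5 leukocyte markers was 4.02 to 5.67 CPM in control shRNA and 1.66 to 2.53 in shEZH2. Of these, CSF1R was at -1.51 and CD14 at 0.14 (log2). The endothelial markers PECAM1 and VWF summed to 0.53 to 0.60 CPM in control shRNA and 2.79 to 3.34 in shEZH2. PECAM1 was at 1.15 and VWF, with control counts of 2 and 5, at 3.45 (log2). The epithelial marker CDH1 passed the call as higher at 2.23, from control counts of 16 and 3, and EPCAM was at 0.10 (log2). The part of the marker changes in the OASL result was not tested. In bulk RNA, fewer cells expressing a gene and less RNA per cell cannot be told apart.

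In shE2F1, OASL had 1308 and 984 counts, or 62.7 and 53.1 CPM. Both values were above both control values. The difference was 0.40 ± 0.18 (log2, SE) and did not pass the call, with an edgeR adjusted p of 0.089. In the drug experiment OASL was at 31.8 and 33.7 CPM in DMSO and at 31.6 and 28.9 CPM in GSK126. The difference was -0.11 ± 0.13 (log2, SE; edgeR adjusted p = 1).

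OAS1, the smallest 2-5A synthetase of the family, rose under shE2F1. It had 59 and 27 counts in control shRNA, or 3.13 and 1.62 CPM. It had 211 and 169 counts in shE2F1, or 10.1 and 9.12 CPM. The shE2F1 libraries were above the 8 others without overlap. The rise was 1.99 ± 0.28 (log2, SE, n = 2 per group), or 3.98-fold, with an edgeR adjusted p of 0.000259. OAS1 was the 1 member of 4 past the call in this comparison, in which 11.6% of 15373 genes passed in either direction, 5.60% as higher and 5.96% as lower. The control libraries are the same as those set against shEZH2, so both comparisons share their error, and the control counts of OAS1 differed widely. Without control shRNA replicate 1 the rise was 2.55, and without replicate 2 it was 1.62 (log2), with OAS1 past the call in both cases. Some markers moved in shE2F1 as well. The summed level of the 5 markers of the line was 5750 CPM in both shE2F1 libraries, against the control values given above. By gene, AXL was at -2.23, CAV1 at -0.83, VIM at -0.27, KRT18 at -0.02 and CD44 at -0.0005 (log2). The leukocyte markers summed to 0.971 to 1.39 CPM, with CSF1R at 0.527 and 0.270 and CD14 at 0.671 and 0.539. The endothelial markers summed to 1.19 to 1.77 CPM, with VWF at 1.39 and 0.809. The epithelial markers CDH1 and EPCAM passed the call at 3.91 and -1.24 (log2, edgeR adjusted p = 6.41e-05 and 3.02e-05). The control counts of CDH1 were low and unequal, at 16 and 3. The part of these changes in the OAS1 result was not tested.

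The other groups did not separate for OAS1. In shEZH2 it had 33 and 38 counts, or 2.49 and 2.19 CPM, and both values lay between the control values. The fitted difference was -0.06 ± 0.32 (log2, SE), and it turned positive without control shRNA replicate 1 (0.50) or without shEZH2 replicate 2 (0.056). OAS1 was at 3.36 and 2.88 CPM in DMSO and at 3.28 and 2.30 in GSK126. Those groups overlapped, and the difference was -0.16 ± 0.28 (log2, SE; edgeR adjusted p = 1).

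OAS2, the synthetase at the far end of the block, was at 16.9 and 12.5 CPM in control shRNA (319 and 208 counts). It was at 7.91 and 9.16 CPM in shEZH2 (105 and 159 counts), a difference of -0.79 ± 0.18 (log2, SE) that is again given as a description. It was at 20.3 and 21.7 CPM in shE2F1 (424 and 402 counts). Control values thus lay between those of the shEZH2 and shE2F1 libraries, with no overlap. In shE2F1 the difference was 0.50 ± 0.17 (log2, SE), and the edgeR adjusted p of 0.0297 and the 1.42-fold size both missed the call. In the drug experiment OAS2 was at 12.2 and 11.8 CPM in DMSO and at 13.4 and 11.2 CPM in GSK126. The GSK126 values spanned the DMSO values (0.04 ± 0.16, log2, SE; edgeR adjusted p = 1).

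OAS3, the largest synthetase, was the steadiest member in the knockdown experiment. It was at 43.7 and 36.5 CPM in control shRNA, 40.5 and 40.7 in shEZH2, and 40.9 and 40.6 in shE2F1. Both knockdown groups lay between the control values. The fitted differences were 0.00 ± 0.11 in shEZH2 and 0.01 ± 0.11 in shE2F1 (log2, SE; edgeR adjusted p = 0.939 for shE2F1). The TPM of OAS3 gave another picture for shE2F1, with 12.3 and 9.28 TPM in control shRNA and 16.9 and 14.9 in shE2F1. RSEM assigned OAS3 an effective length of 5068 and 5358 bases in control shRNA and of 3776 and 4452 bases in shE2F1, so that shorter transcripts weighed more in the estimate there. With effective lengths in the fit, the difference in shE2F1 was 0.35 ± 0.15 (log2, SE; edgeR adjusted p = 0.0999).

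In the drug experiment OAS3 was at 32.5 and 31.1 CPM in DMSO and at 37.2 and 38.0 CPM in GSK126. Both GSK126 values were above both DMSO values, but the difference of 0.24 ± 0.12 (log2, SE) was 1.18-fold, with an edgeR adjusted p of 1. OAS3 and OASL were the 2 members whose DMSO and GSK126 values did not overlap, against 28.4% of 14632 genes. No member passed the call with GSK126, where 0.00% of genes did. By edgeR 577 genes (3.94%) had an unadjusted p below 0.05, and DESeq2 called 10 genes, none of them a member.

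**Figure D2:**
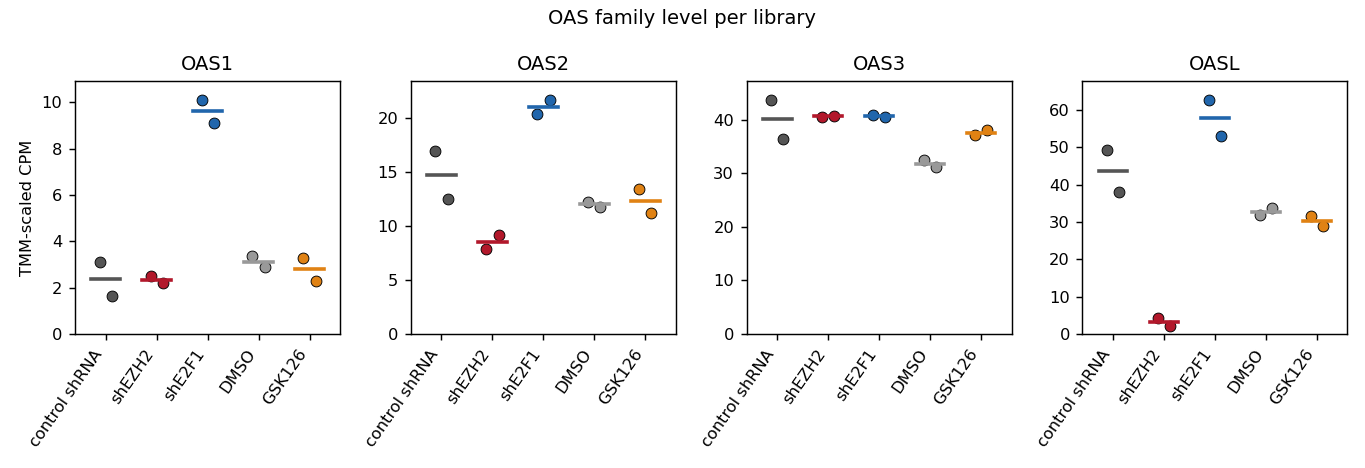
Each panel gives 1 OAS gene, with TMM-scaled CPM on a linear axis from 0, 1 point per library and a line at the mean of the 2 libraries of a group. OASL is at 4.22 and 2.25 CPM in shEZH2, OAS1 at 10.1 and 9.12 CPM in shE2F1, and OAS3 between 31.1 and 43.7 CPM in all libraries.

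**Figure D3:**
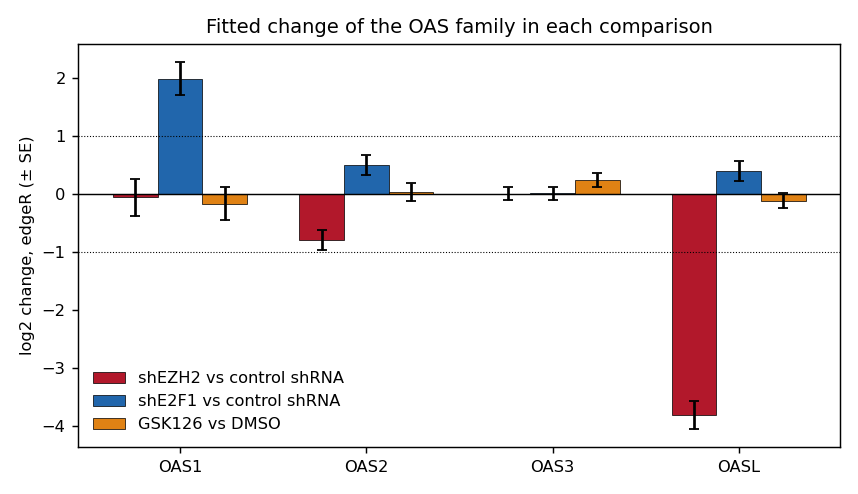
Bars give the fitted log2 change of each OAS gene in each comparison and whiskers its SE (n = 2 libraries per group), with dotted lines at the 2-fold limit of the call. The bars past that limit are OASL in shEZH2 (-3.81, the value that picked the family) and OAS1 in shE2F1 (1.99).

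In shE2F1, 3 of the 4 members (OAS1, OAS2 and OASL) were above both control libraries without overlap, against 37.5% of all genes tested. In shEZH2, besides OASL, whose fall there picked the family, OAS2 was below both, against 38.8%. The median change of the 4 members was 0.45 in shE2F1 and -0.04 with GSK126 (log2), against medians of 0.00 and -0.01 over all genes tested. In shEZH2 it was -0.42, against -0.02, but it includes OASL, so nothing is read from it. Control shRNA replicate 1 was above replicate 2 for all 4 members.

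Across the 10 libraries, with each value taken as log2 CPM relative to the mean of its own control group, OAS2 tracked OASL most closely among the members (Pearson r = 0.875) and OAS1 next (r = 0.667). OAS1 and OASL tracked each other less closely (r = 0.329), and OAS3 gave r of -0.08 to 0.18 with the others. These coefficients are descriptions over 10 points that share control libraries. Those with OASL, for members and other genes alike, rest largely on the shEZH2 libraries. The fall of OASL there picked the family, so nothing further is read from them. Of 11551 genes, those most like OASL were WDR55, DUSP4, MAN2B1, TINF2 and CDC25B (r = 0.996 to 0.997). DUSP4 encodes a MAP kinase phosphatase and CDC25B a cell cycle phosphatase, and their shEZH2 changes were -1.63 and -1.03 (log2). The genes most like OAS1 were ACSS1, GOLGA5, WASHC2A, MON1B and HERPUD1 (r = 0.986 to 0.996), led by ACSS1, a mitochondrial acetyl-CoA synthetase that differed by 1.84 in shE2F1. GOLGA5, WASHC2A, MON1B and HERPUD1 differed there by 0.75, 1.21, 0.47 and 0.76, as r does not measure the size of a change. The coefficients with OAS1 rest largely on the shE2F1 libraries. The genes most like OAS2 were CFB, PNMA2, MVP, LPIN3 and CEMIP (r = 0.975 to 0.983), and CFB, complement factor B, was at -1.72 in shEZH2 and 1.23 in shE2F1. The genes most like OAS3 were FLG, FAM43A, SLC9A5, MHENCR and ADAMTSL4, with lower coefficients (r = 0.836 to 0.884).

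Of 3 partners of the 2-5A pathway, ABCE1, an ATPase of ribosome recycling, and the 2-5A phosphodiesterase genes PDE12 and AKAP7, none passed the call in any comparison. Of all genes tested, 18.2% passed in shEZH2, 11.6% in shE2F1 and 0.00% with GSK126, so nothing is read from this count. In shE2F1 ABCE1 was at -0.26, PDE12 at -0.14 and AKAP7 at -0.22 (log2, edgeR adjusted p = 0.0557 to 0.562), beside 1.99 for OAS1.

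The list of factors that induce the OAS genes holds 5 genes, too few to read a count from. In shE2F1, 0 of 5 passed the call (median 0.32), against 11.6% of all genes tested. There STAT2 was at 0.11, IRF9 at 0.53, IRF1 at -0.43 and IRF7 at 0.32 (log2, edgeR adjusted p = 0.0306 to 0.637). IRF3 was at 0.93 (log2, edgeR adjusted p = 0.00017), 1.90-fold and so short of the 2-fold limit. In shEZH2, STAT2 was at -0.56, IRF9 at 0.40, IRF1 at 0.08 and IRF7 at -1.08. IRF7 and IRF3, at -1.16, passed the call as lower, against 10.7% of all genes tested. STAT2 and IRF9, both part of ISGF3, did not pass it (SE of 0.18 for each). These are transcript levels, and the activity of ISGF3 was not tested. Of the 6 interferon genes examined, IFNL1 reached 6 counts and the others at most 1, so none was tested. None of 8 receptor and kinase genes of the interferon pathway passed the call. Of all genes tested, 18.2% passed in shEZH2, 11.6% in shE2F1 and 0.00% with GSK126. These 8 genes were not level in shEZH2. Their median there was 0.71 (log2), against -0.02 over all genes tested, with 5 above 0, 3 below and a range of -0.77 to 0.89. In shE2F1 their median was 0.22, with a range of -1.21 to 0.80.

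The interferon pathway genes under shEZH2 are given as a description beside OASL, whose value there picked the family. Of 31 interferon-stimulated effector genes tested, 11 passed the call as lower and 0 as higher, against 10.7% and 7.52% of all genes tested, with a median of -0.77 (log2). Of those past the call, the 8 with the largest change were IFIT1 at -2.88, BST2 at -2.24, IFI35 at -1.93, IFIT2 at -1.85, DDX60 at -1.83, IFI44 at -1.75, ISG20 at -1.72 and ISG15 at -1.65. IFIT1 and IFIT2 bind foreign RNA, BST2 tethers virions and ISG15 is a ubiquitin-like modifier. Of 9 nucleic acid sensors tested, DHX58 (-1.97), RIGI (-1.60) and IFIH1 (-1.18) passed as lower against the same 10.7%, and RIGI encodes the sensor that OASL enhances. OAS1 and OAS3 stood near 0 beside these genes.

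Under shE2F1, 8 of the 31 effectors passed the call as higher and 0 as lower, against 5.60% and 5.96% of all genes tested, with a median of 0.39 (log2). They were CMPK2, RSAD2 (1.98), USP18 (1.80), MX2 (1.74), TRIM22 (1.66), IFI27 (1.54), IFIT2 (1.52) and MX1 (1.34), with edgeR adjusted p of 1.2e-05 to 0.00867, and the control counts of CMPK2 were 8 and 2. RSAD2 encodes the antiviral enzyme viperin, and MX1 and MX2 encode antiviral GTPases. OAS1 was at 1.99 in the same comparison. Without shE2F1 replicate 1 the number of effectors past the call was 3, and it was 5 without shE2F1 replicate 2 or control shRNA replicate 2. Of the sensors, STING1 (1.72) and IFIH1 (1.38) passed as higher and TLR3 (-1.76) as lower. IFIT2 and IFIH1 passed the call in opposite directions in the knockdowns, which share their controls.

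With GSK126, 0 of 30 effectors and 0 of 9 sensors passed the call. In that fit 0.00% of 14632 genes did, so nothing is read from these counts. The medians were -0.02 and -0.06 (log2), with 14 effectors above 0 and 16 below. The largest effector difference was USP18, at 1.11 ± 0.37 (log2, SE; edgeR unadjusted p = 0.0224). It had 14 and 12 counts in DMSO and 23 and 28 in GSK126.

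**Figure D4:**
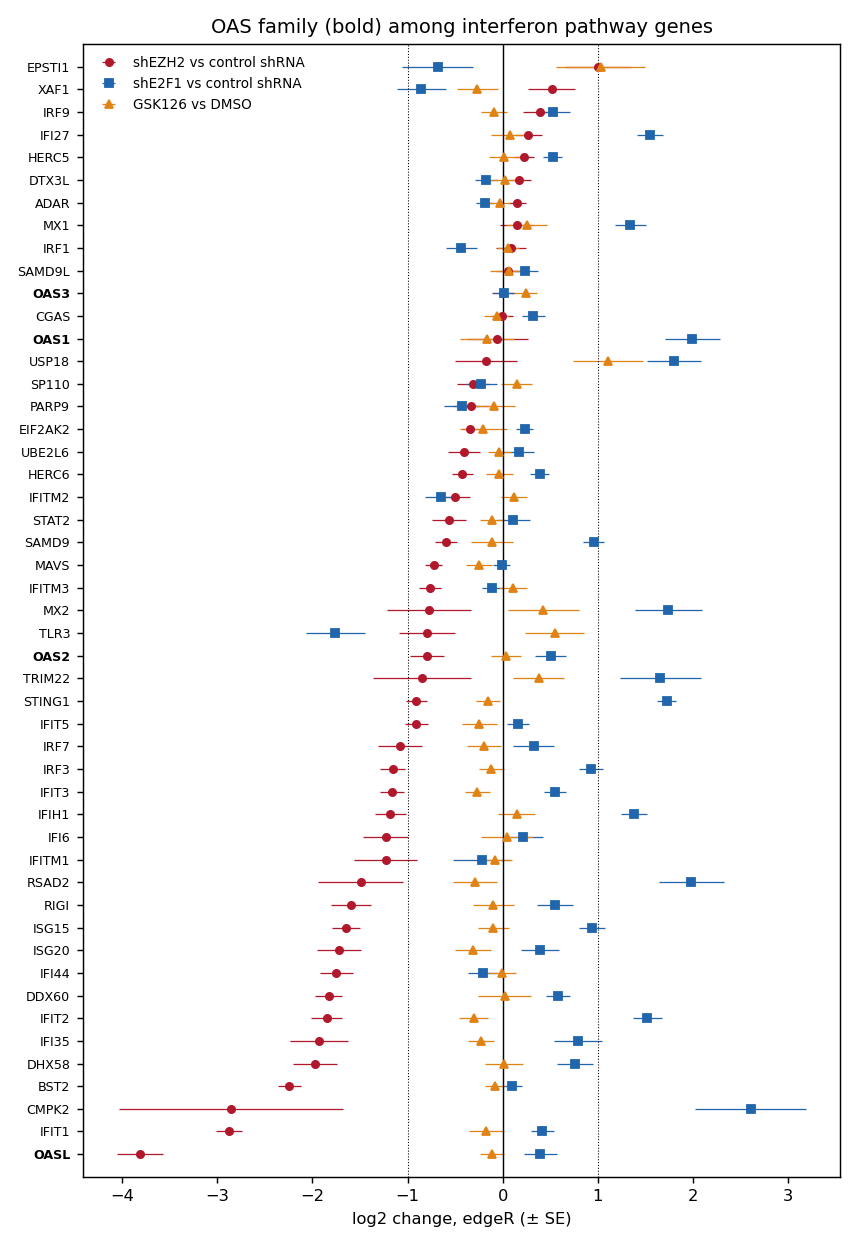
Points give the fitted log2 change with its SE for the OAS genes (bold), ISGF3 and IRF factors, nucleic acid sensors and interferon-stimulated effectors in each comparison, ordered by the shEZH2 value, with dotted lines at the 2-fold limit. OASL is at -3.81 under shEZH2, the value that picked the family, OAS1 and OAS3 are near 0 there, and the knockdown comparisons share their control libraries.

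The neighbors named here did not all move in the same direction in either knockdown. Those with more than 4 counts lay 113405 to 487018 bases away, so they say little about changes close to the members. OAS1, OAS3 and OAS2 are adjacent, yet they differed by 1.99, 0.01 and 0.50 in shE2F1 (log2). On the side of OAS1 the nearest protein-coding genes were RPH3A, at 0 to 1 count, PTPN11, at 0.20 in shEZH2 and -0.03 in shE2F1, and RPL6, a ribosomal protein gene at -1.33 and -0.90. On the side of OAS2, DTX1, RASAL1 and CFAP73 were at 0 to 4 counts. Of the genes near OASL, SPPL3 was at -0.01 in shEZH2 and -0.50 in shE2F1, CAMKK2 at -0.41 and 0.34, and P2RX4, an ATP-gated channel gene, at 0.64 and 1.23, while P2RX7 was at 0 to 2 counts. The OASL change of -3.81 in shEZH2 picked the family, so nothing is read from how these genes compare with it.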

How the data were processed

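Polyadenylated RNA was measured in 10 libraries, grouped by the labels. The authors mapped reads with STAR and estimated abundance with RSEM on hg38. The submitters' processing notes name STAR 2.7.2b and RSEM 1.3.1, and the strand setting is not given in the sources used here. The deposited files hold expected counts per gene, TPM, effective lengths and posterior standard deviations. Of 18 records, 8 repeated another record and were used 1 time. Gene names came from GENCODE 44.

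Expected counts were rounded and tested with edgeR 4.0.16 (limma 3.58.1, R 4.3.3) by the quasi-likelihood test with TMM scaling, filterByExpr and Benjamini-Hochberg adjustment over all genes tested, with the 6 knockdown libraries in 1 fit and the 4 drug libraries in another. A call required an adjusted p below 0.01 and more than a 2-fold change. Deposited TPM were used to compare genes. A count of 0 allows up to 3 counts, or 0.150 to 0.227 CPM per library, covering counting error only. The steps were tested on simulated data. Alternatives were DESeq2 1.42.0 and its size factors, other filters and thresholds, other sets of libraries, effective lengths, a GC and length correction, a replicate block and leaving out each library.

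The members, the gene lists and the tests were chosen with earlier results of these data known. Named were the members, EZH2 and E2F1, the STAT and IRF factors, of the other lists those past the call (at most 8 per list and direction), the nearest 3 protein-coding genes on each side, and for each member the 5 genes with the highest r among genes with a mean of at least 50 counts. Genes outside the rule (the 2-5A partners and the markers) were given as parts of their lists. Some genes of the lists and some neighbors are not reported here.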

Additional observations from a re-analysis of the deposited data

How the results depend on the processing

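The call of OAS1 in shE2F1 held under all 17 alternatives (1.62 to 2.55, log2, edgeR or DESeq2 adjusted p up to 0.00515), and OASL in shEZH2 stayed between -4.30 and -3.37. With an adjusted p below 0.05 and no limit on fold, 8550 genes passed in shEZH2, 6879 in shE2F1 and 0 with GSK126, and OAS2 passed in shE2F1 (0.50, adjusted p = 0.0297). OASL in shE2F1 was at 0.23 to 0.59 (log2) over the alternatives, short of 2-fold in each. Its edgeR adjusted p was 0.0062 with no filter on low counts, 0.0204 with the replicate block and 0.2 with effective lengths. In shEZH2, OAS3 was at -0.0063 with no filter on low counts, -0.033 with effective lengths and -0.16 with the GC and length correction. Leaving out 1 library gave -0.12 to 0.14 for OAS3 and -0.44 to 0.50 for OAS1 in shEZH2, -0.11 to 0.15 for OAS3 in shE2F1 (-0.11 without control shRNA replicate 2), and -0.44 to 0.076 for OAS1 and -0.10 to 0.17 for OAS2 with GSK126 (0.076 without GSK126 replicate 2, -0.10 without GSK126 replicate 1). The 8 effectors called higher in shE2F1 became 5 with a mean of at least 50 counts or with effective lengths and 3 to 10 with 1 library left out, which alternative was added after seeing the data. With GSK126, DESeq2 called 10 genes and leaving out 1 library gave 37 to 43. The cause was not tested.

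Same-numbered libraries deviated together with r = 0.041 to 0.205 in the knockdown groups and 0.663 between DMSO and GSK126, and the labels name no shared day or culture, so the pairing rests on the number. The replicate block called 68 genes with GSK126, and 86 with the GC and length correction, none of them a member (OAS3 0.24, adjusted p = 0.0184). In shEZH2, OAS3 was at -0.16 with that correction, with or without the replicate block, and at 0.0099 with the block alone. The block changed no call of a member. With 27 to 211 counts, OAS1 was the least precise member.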
